A study of Mus musculus with 18 samples.

Results

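The 10 genes described here encode the enzymes that make and rearrange disulfide bonds in the endoplasmic reticulum (ER): 2 oxidases (Ero1a, Ero1b), 6 soluble protein disulfide isomerases (P4hb, Pdia3, Pdia4, Pdia5, Pdia6, Txndc5), the retention factor Erp44 and the membrane-bound isomerase Tmx1. They were taken by gene symbol from a list that was chosen with earlier results of these data known. Counts of members beside shares of all genes are therefore a description and not a test of the list. The brightest probe set with a single symbol stood for each gene. All 10 were among the 19938 genes measured, no filter removed any, and each lay in every group above 6.07 on the log2 scale, the level under which 95% of 1194 olfactory and vomeronasal receptor genes lay. That level is called the silent level, since most such receptors are used in sensory neurons.

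The samples were 18 single-colour Affymetrix arrays of total RNA from B16 F10.9-4, a mouse melanoma cell line, in 6 groups of 3 arrays, 1 array of each group from each of 3 independent experiments. In 3 groups no doxycycline was given: vehicle only (0 h), tunicamycin for 5 h and tunicamycin for 12 h. In the other 3 groups cells were first given doxycycline, which switches on LIP, the short form of the transcription factor C/EBPβ that lacks the activating part, and were then harvested at 0 h, or after 5 h or 12 h of tunicamycin. The labels give no dose and no length of the doxycycline pretreatment. No vehicle array at 5 h or 12 h and no doxycycline array of cells without the LIP construct was used here, so time in culture and tunicamycin, and doxycycline itself and LIP, cannot be told apart.

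Disulfide bonds form in the ER by relay. A flavoprotein oxidase of the ERO1 family takes electrons from an isomerase and hands them to oxygen, which gives hydrogen peroxide, and the oxidised isomerase passes its disulfide on to a folding protein, or shuffles a wrong one into place. Tunicamycin blocks the first step of N-linked glycosylation, unglycosylated proteins misfold, and the unfolded protein response raises the ER's folding genes through the transcription factors XBP1, ATF6 and ATF4. Melanoma cells secrete and carry many disulfide-bonded glycoproteins, the pigment enzymes among them.

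All 9 melanocyte markers listed (Mlana, Pmel, Tyr, Dct, Tyrp1, Mitf, Sox10, Gpnmb and Slc45a2) lay above the silent level, and their summed log2 level ran from 104.3 to 109.3 over the groups. Of the markers of other cell types, 3 of 5 for fibroblasts (Col1a1, Col1a2, Pdgfra), 1 of 4 measured for immune cells (Cd3e), 1 of 4 for endothelium (Cdh5) and 1 of 5 for epithelium (Cdh1) lay above it, with Dcn, Lum, Pecam1 and Epcam at or under it. Their summed levels ran from 31.6 to 32.1, 22.6 to 23, 22.6 to 22.8 and 29.2 to 29.6 over the groups. Their part in the results was not tested. In RNA pooled from a culture, fewer cells of a kind and less RNA per cell cannot be told apart. Cebpb, the gene that encodes LIP and the longer forms, which this probe set does not separate, read 9.26, 9.26 and 9.48 with vehicle and 11.02, 11.27 and 11.24 with doxycycline. The difference was 1.84 ± 0.0709 (log2 ± SE; limma adjusted p = 2.02e-11) at 0 h, 1.81 at 5 h and 1.22 at 12 h. Without doxycycline, 12 h of tunicamycin also raised Cebpb, by 0.96 over vehicle (limma adjusted p = 4.8e-09). The 12 h means were 10.29 without doxycycline and 11.52 with it, against 9.33 and 11.18 at 0 h.

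The promoters of the members were read from RefSeq's mouse promoter table (GRCm38.p6), which holds 13 windows for the 10 genes, each 300 bases long, from 250 before the start of transcription to 50 after it. The motif of most direct interest is the ER stress response element, the site of ATF6 and XBP1: the letters CCAAT, 9 bases of any kind, then CCACG, searched on both strands. It stood in 2 of the 10 members, Ero1b and Pdia6, and in 37 of all 27025 genes with a window (0.137%). By window that was 39 of 32851 (0.119%). The 2 stretches are shown because these genes were also among the members with the larger changes after 12 h of tunicamycin. Pdia5, which rose by 1.04 against 0.96 for Pdia6, did not hold the element. A link between the element and the size of the change was not tested. The third stretch belongs to Creld2, the only 1 of 27 further ER oxidative folding genes with a promoter window that held the element. Capitals mark the 2 parts of the element; in Ero1b and Creld2 it lies on the opposite strand, so that the capitals read CGTGG and then ATTGG.
Ero1b (chr13:12565652-12565730, + strand, element 201 to 183 bases before the start): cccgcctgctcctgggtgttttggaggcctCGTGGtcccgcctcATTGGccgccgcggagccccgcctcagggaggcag
Pdia6 (chr12:17266461-17266539, + strand, element 98 to 80 bases before the start): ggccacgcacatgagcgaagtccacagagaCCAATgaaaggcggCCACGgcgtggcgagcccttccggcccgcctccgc
Creld2 (chr15:88819490-88819568, + strand, element 126 to 108 bases before the start): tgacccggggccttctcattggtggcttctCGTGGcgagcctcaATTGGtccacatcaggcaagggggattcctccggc

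A second site of XBP1 and ATF6, TGACGTGG, stood in 1 member, Txndc5, against 0.714% of all genes with a window, and in 1 further folding gene, Txndc11. The Txndc5 stretch is shown with the 8 letters in capitals, because Txndc5 holds this site and had the smallest called change of the members after 12 h.
Txndc5 (chr13:38528015-38528082, - strand, site 138 to 131 bases before the start): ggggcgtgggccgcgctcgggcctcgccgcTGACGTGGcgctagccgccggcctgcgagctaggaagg
The composite site of ATF4 and C/EBP factors, TGATGNAA, stood in 1 member, Txndc5 in another of its 3 windows, against 4.51% of all genes with a window. The shorter letters were common. ACGTG, which lies inside TGACGTGG, stood in 6 members and 21.8% of all genes with a window. CCACG, the second part of the ER stress response element, stood in 8 members and 35.5% of such genes. CCACG also overlaps TGACGTGG on its other strand. The element's second form (ATTGG, 1 base, CCACG) stood in 0 members and 0.0444% of all genes with a window. The windows of Pdia3 and Tmx1 held none of the 6 motifs. A match describes letters in a window, and a window without a match says nothing about the factors.

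**Figure D1:**
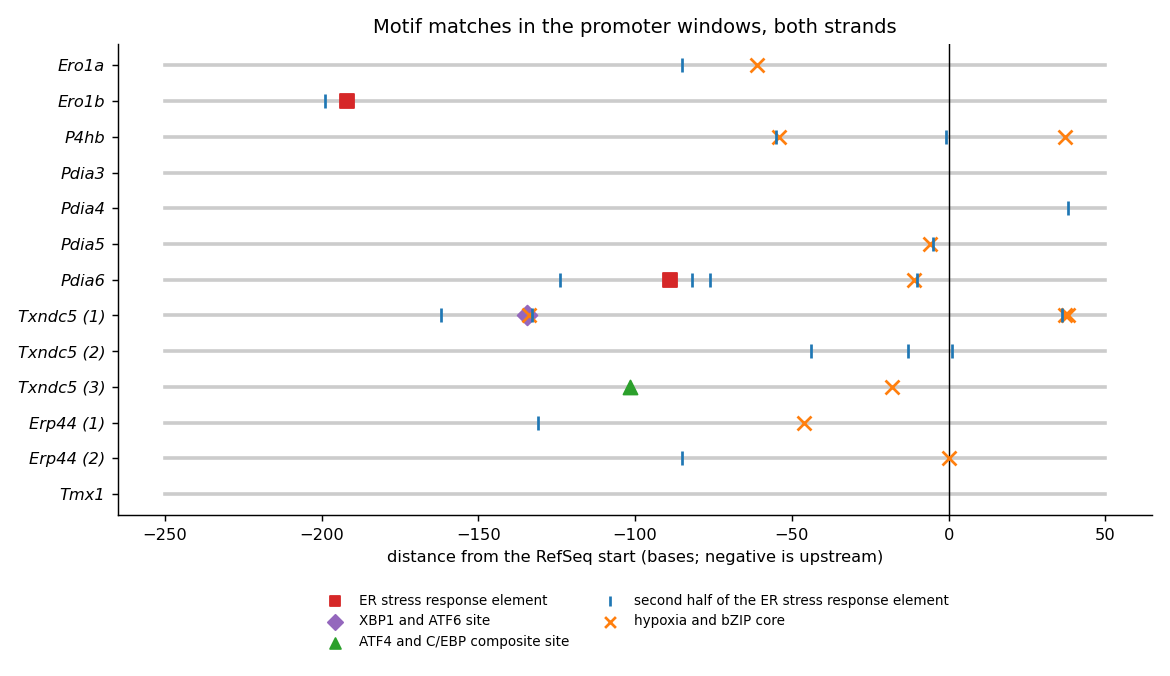
Motif matches in the 13 promoter windows of the 10 genes; the x axis is the distance in bases from the RefSeq start, grey lines are the windows and symbols the matches on either strand. The ER stress response element appears in the Ero1b and Pdia6 windows, and the windows of Pdia3 and Tmx1 hold no match.

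Tunicamycin for 12 h was compared with vehicle to ask which of these genes the stress raised in cells without doxycycline. Of the 10 genes 9 rose and 0 fell, while 11.9% of all genes rose and 15.8% fell. The median change of the 10 was 0.60 on the log2 scale, beside 0.00 over all genes. Ero1b rose most, 7.96-fold, followed by Pdia5 (2.06-fold) and Pdia6 (1.95-fold), and Tmx1 did not pass the test. This order holds for the brightest probe set of each gene. A second, dimmer Pdia4 probe set, described below, rose 6.79-fold, more than Pdia5.

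The oxidases differed in the size of the rise. Ero1b, the ERO1 form known for high levels in pancreas and for its induction by ER stress, read 7.32, 7.49 and 7.35 with vehicle and 10.28, 10.36 and 10.50 after 12 h of tunicamycin, a change of 2.99 ± 0.0943 (log2 ± SE, n = 3 a group; adjusted p = 3.76e-14). Ero1a, the widely expressed form that hypoxia also induces, read 11.64, 11.62 and 11.56 with vehicle and 12.39, 12.40 and 12.44 after 12 h, which is 0.80 ± 0.0437 (1.74-fold; adjusted p = 7.79e-11). For both oxidases every treated array lay above every vehicle array (share of all genes not counted). The vehicle mean of Ero1b, 7.39, was the lowest of the 10 genes and lay above the silent level of 6.07. A dim probe set can understate a fold change, which was not tested here. In Pdia4 the dimmer probe set, described below, gave the larger change.

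Among the isomerases Pdia5, known as an enzyme that acts on the stress sensor ATF6, read 9.96, 9.92 and 9.93 with vehicle and 10.99, 11.01 and 10.93 after 12 h, a rise of 1.04 ± 0.0571 (2.06-fold; adjusted p = 8.3e-11). Pdia6, a partner of the chaperone BiP, read 11.40, 11.33 and 11.45 and then 12.34, 12.37 and 12.36, a rise of 0.96 ± 0.0464 (1.95-fold; adjusted p = 1.5e-11). Pdia4, an isomerase with an extra active-site domain, read 12.79, 12.73 and 12.80 and then 13.52, 13.42 and 13.49, a rise of 0.71 ± 0.0433 (1.63-fold; adjusted p = 3.9e-10). In these genes the 2 groups lay well apart (share of all genes not counted), with arrays of a group within a narrow range of each other.

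The changes of the other isomerases were smaller. P4hb, the classical protein disulfide isomerase and a subunit of prolyl 4-hydroxylase, went from 12.38, 12.31 and 12.33 to 12.75, 12.68 and 12.68, a rise of 0.36 ± 0.0429 (1.29-fold; adjusted p = 1.93e-06). Pdia3, which works on glycoproteins held by calnexin and calreticulin, went from 12.60, 12.59 and 12.66 to 13.10, 12.93 and 12.92, a rise of 0.37 ± 0.0682 (1.29-fold; adjusted p = 0.00034). Txndc5 went from 11.51, 11.32 and 11.44 to 11.71, 11.72 and 11.65, a rise of 0.27 ± 0.0557 (1.20-fold; adjusted p = 0.000942). The treated arrays of all 3 genes lay above the vehicle arrays (share of all genes not counted). Experiment 1 gave the largest of the 3 changes for Pdia3 (0.49) and experiment 2 for Txndc5 (0.40).

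Erp44, which cycles between ER and Golgi and brings back ERO1 and unassembled clients that lack a retrieval signal, read 10.78, 10.76 and 10.72 with vehicle and 11.28, 11.25 and 11.18 after 12 h, a rise of 0.49 ± 0.0773 (1.40-fold; adjusted p = 6.26e-05). Tmx1, a transmembrane isomerase that acts on membrane-bound clients, read 11.73, 11.69 and 11.72 and then 11.72, 11.71 and 11.67. The Tmx1 groups overlapped, with a difference of -0.01 and a 95% interval from -0.10 to 0.07 (adjusted p = 0.885), and the rise of Txndc5, 0.27, lies outside that interval. Across all 6 groups the means of Tmx1 spanned 0.04, against 0.47 for Txndc5 and 3.42 for Ero1b.

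**Figure D2:**
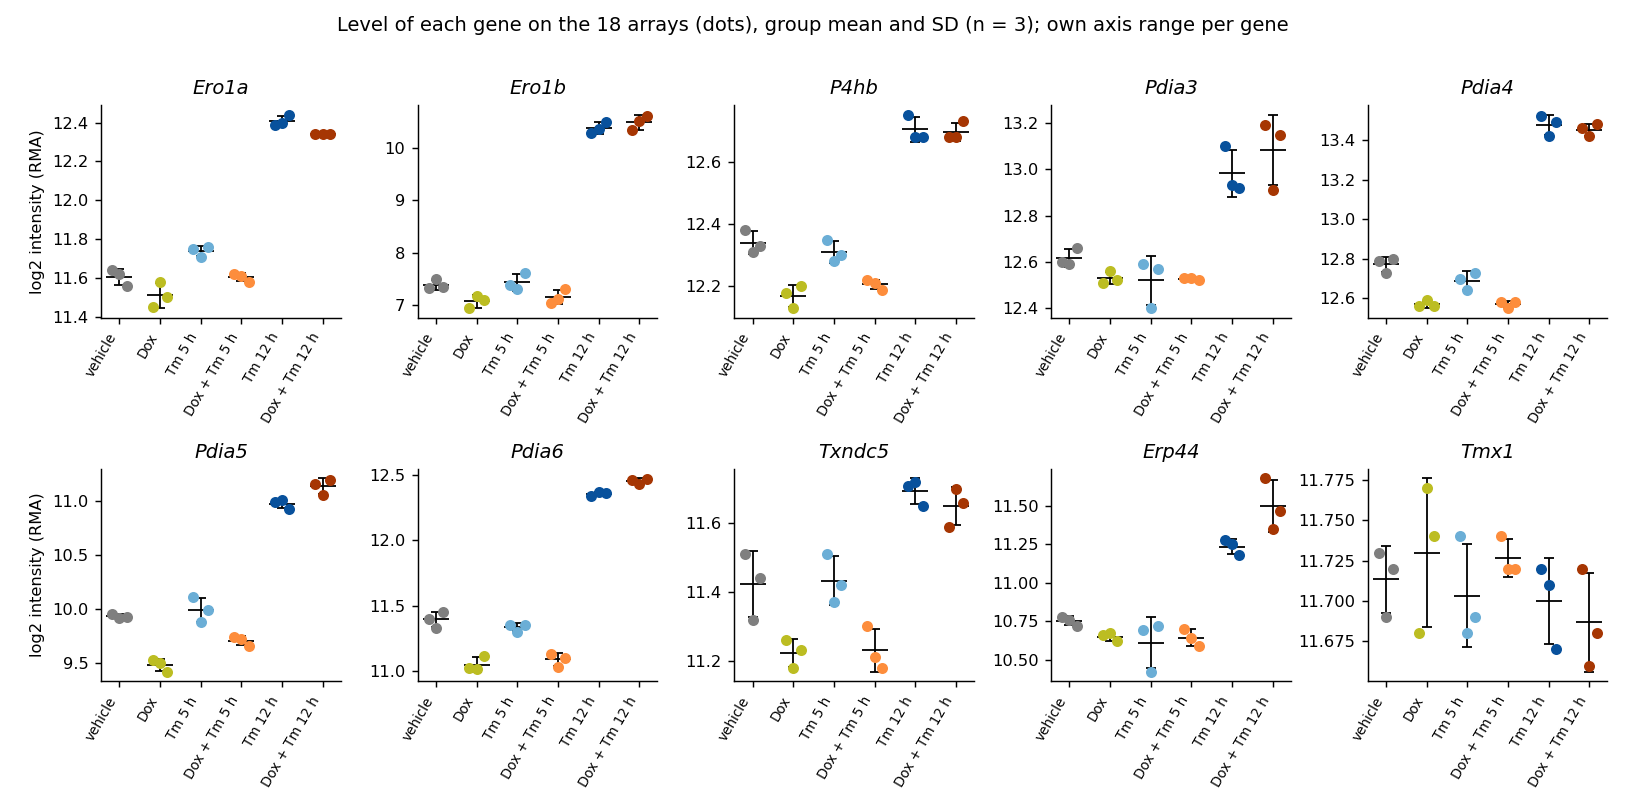
Log2 intensity of the 10 genes on the 18 arrays (dots), with group means and SDs (n = 3); each panel has its own axis range, so heights are compared within a panel only. In 9 panels the 12 h groups lie above the other 4 groups (share of all genes not counted), and Tmx1 spans 0.04 between its highest and lowest group mean.

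A second Pdia4 probe set, dimmer by its mean (9.34 against 12.92), gave a larger change: its group mean was 8.52 ± 0.138 with vehicle (SD, n = 3) and 11.28 ± 0.0738 after 12 h, a difference of 2.76 ± 0.109 (6.79-fold; adjusted p = 1.35e-10 over 35557 probe sets). The direction was shared and the size was not. Which transcripts each set covers was not analysed here, so the 1.63-fold of the brighter set is 1 of 2 readings for Pdia4.

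The early time point was compared with vehicle to ask whether the genes had moved by 5 h. By limma 0 of the 10 genes passed the threshold, 1 had an unadjusted p under 0.05, and of all genes 9.02% and 22.4% did so. Ero1a was that gene: its arrays read 11.75, 11.71 and 11.76, all above the vehicle arrays, a difference of 0.13 ± 0.0437 (adjusted p = 0.066). This value crossed the threshold in 5 of the other settings tried, with adjusted p from 0.00331 to 0.491 over all of them.

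Ero1b, which gained most by 12 h, read 7.38, 7.30 and 7.62 at 5 h, a difference from vehicle of 0.04 with a 95% interval from -0.15 to 0.24. Pdia5 (10.11, 9.88 and 9.99) and Pdia6 (11.35, 11.30 and 11.35) overlapped their vehicle arrays too, with differences of 0.06 and -0.06. The remaining 6 genes differed from vehicle by -0.14 (Erp44) to 0.01 (Txndc5). Tunicamycin array 2 at 5 h had the largest residual spread of all arrays, and it held the lowest Erp44 (10.42, against 10.69 and 10.72) and the lowest Pdia3 (12.40, against 12.59 and 12.57) of its group. The second Pdia4 probe set stood apart from its partner here, with 8.95 ± 0.168 at 5 h and a difference of 0.43 ± 0.109 (adjusted p = 0.0294 over all probe sets), where the brighter set gave -0.08.

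Between 5 h and 12 h of tunicamycin 9 of the 10 genes rose, with 11.4% of all genes rising, and the median was 0.65. Ero1b rose by 2.95, Pdia6 by 1.02, Pdia5 by 0.98, Pdia4 by 0.79, Ero1a by 0.67 and Erp44 by 0.63. Pdia3, P4hb and Txndc5 rose by 0.46, 0.39 and 0.25, and Tmx1 differed by 0.00 (95% interval -0.09 to 0.09). The second Pdia4 probe set rose by 2.33. The 12 h arrays are shared with the comparison against vehicle.

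Doxycycline alone was compared with vehicle to ask how these genes stood with LIP switched on in cells without tunicamycin. Of the 10 genes 6 fell and 0 rose, with 5.82% of all genes falling and 4.89% rising, and their median was -0.18 against 0.02 over all genes. The genes that fell were Pdia5, Pdia6, Ero1b, Pdia4, Txndc5 and P4hb. The changes were small, at most 1.37-fold.

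Pdia5 read 9.53, 9.50 and 9.42 with doxycycline, each below all 3 vehicle arrays, and fell by 0.45 ± 0.0571 (adjusted p = 4.42e-05). Pdia6 read 11.02, 11.01 and 11.11 and fell by 0.35 ± 0.0464 (adjusted p = 7.25e-05). Pdia4 read 12.56, 12.59 and 12.56 and fell by 0.20 ± 0.0433 (adjusted p = 0.00461). In the second Pdia4 probe set the fall was larger, 0.72 ± 0.109 (adjusted p = 0.000995 over all probe sets), to a mean of 7.80. These 3 isomerases lay below vehicle in each of the 3 experiments (share of all genes with such agreement not counted).

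Ero1b read 6.94, 7.18 and 7.09 and fell by 0.32 ± 0.0943 (adjusted p = 0.0356). Txndc5 read 11.26, 11.18 and 11.23 and fell by 0.20 (adjusted p = 0.0262), and P4hb read 12.18, 12.13 and 12.20 and fell by 0.16 (adjusted p = 0.0174). Ero1a (11.45, 11.58 and 11.50) overlapped its vehicle arrays, with a difference of -0.10 (adjusted p = 0.188). Pdia3 (12.51, 12.56 and 12.52) and Erp44 (10.66, 10.67 and 10.62) lay below vehicle without overlap yet did not pass the test, at -0.08 and -0.10, and Tmx1 differed by 0.02 (95% interval -0.07 to 0.10). Without vehicle array 1 the count of genes that fell was 3, and without experiment 1 or experiment 3 it was 2. With array medians set equal it was 3, the calls for Ero1b (adjusted p = 0.0506), P4hb (0.0545) and Txndc5 (0.0724) being lost. Single arrays also ended these calls: any vehicle array, doxycycline array 1 or doxycycline array 3 for Ero1b (adjusted p 0.0586 to 0.174), vehicle array 1 or 3 or doxycycline array 2 or 3 for Txndc5 (0.0678 to 0.148), and vehicle array 1 or doxycycline array 2 for P4hb (0.0891 and 0.0845). No single array ended those of Pdia4, Pdia5 and Pdia6.

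At 5 h of tunicamycin the doxycycline cultures were compared with those without it. Of the 10 genes 4 were lower (5.21% of all genes were) and 0 higher (6.76% of all genes were), and the median was -0.13. Pdia5 (9.74, 9.72 and 9.66) differed by -0.29 ± 0.0571 (adjusted p = 0.00184), and Pdia6 (11.13, 11.03 and 11.10) differed by -0.25 ± 0.0464 (adjusted p = 0.00119). Both genes lay below every array without doxycycline at that time (share of all genes not counted).

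Txndc5 (11.30, 11.21 and 11.18) differed by -0.21 (adjusted p = 0.0186) and Ero1a (11.62, 11.61 and 11.58) by -0.14 (adjusted p = 0.042). Ero1b (7.04, 7.12 and 7.30), Pdia4 (12.58, 12.55 and 12.58) and P4hb (12.22, 12.21 and 12.19) differed by -0.28, -0.12 and -0.11 and did not pass. All 3 differed in that direction in each experiment, and the share of all genes with such agreement was not counted. With the experiment as a block Ero1b passed (adjusted p = 0.0144). Pdia3, Erp44 and Tmx1 differed by 0.01 to 0.03. The second Pdia4 probe set differed by -0.27 ± 0.109 (adjusted p = 0.208 over all probe sets). The Ero1a call was lost without any 1 of the 6 arrays compared and without 4 arrays of other groups (adjusted p 0.0501 to 0.138), and the Txndc5 call without tunicamycin array 1 (0.0996) or array 2 (0.0644) or 3 (0.0875) of the group with doxycycline. No single array ended the calls of Pdia5 and Pdia6. The count was 2 without tunicamycin array 1, 2 without array 2 of the group with doxycycline, 1 without experiment 1 and 0 without experiment 3. It was also 2 with only the compared groups in the fit or with array medians set equal, and 7 with a variance trend and robust fit.

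The same comparison was made at 12 h of tunicamycin. By limma 1 of the 10 genes was higher with doxycycline, with 6.95% of all genes higher, 0 were lower, with 7.77% of all genes lower, and the median was 0.05. Erp44 read 11.68, 11.35 and 11.47 with doxycycline, each above all 3 arrays without it, a difference of 0.26 ± 0.0773 (adjusted p = 0.0264). It was uneven over the experiments, at 0.40, 0.10 and 0.29. This call was lost without doxycycline and tunicamycin array 1 (adjusted p = 0.168) or 3 (0.0522), without tunicamycin array 2 (0.0572) or 3 (0.0938), without experiment 1 (0.272) or 3 (0.226), and with only the compared groups in the fit (0.0707).

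Pdia5 read 11.16, 11.06 and 11.20, above the arrays without doxycycline in each experiment, with a difference of 0.16 ± 0.0571 that did not pass (adjusted p = 0.0649). Pdia6 (12.46, 12.43 and 12.47) differed by 0.10 (adjusted p = 0.215), and Ero1b (10.34, 10.52 and 10.62) by 0.11 (95% interval -0.09 to 0.31). The arrays of Ero1a read 12.34 in all 3 experiments, with a difference of -0.07 (adjusted p = 0.41). For the remaining genes the doxycycline arrays overlapped the others: Pdia3 (13.19, 12.91 and 13.15) differed by 0.10, P4hb (12.68, 12.68 and 12.73) by 0.00, Pdia4 (13.46, 13.42 and 13.48) by -0.02, Txndc5 (11.59, 11.70 and 11.66) by -0.04 and Tmx1 (11.72, 11.66 and 11.68) by -0.01. The second Pdia4 probe set was lower with doxycycline at 12 h, by 10.78 ± 0.0717 against 11.28, a difference of -0.50 ± 0.109 (adjusted p = 0.00774 over all probe sets).

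**Figure D3:**
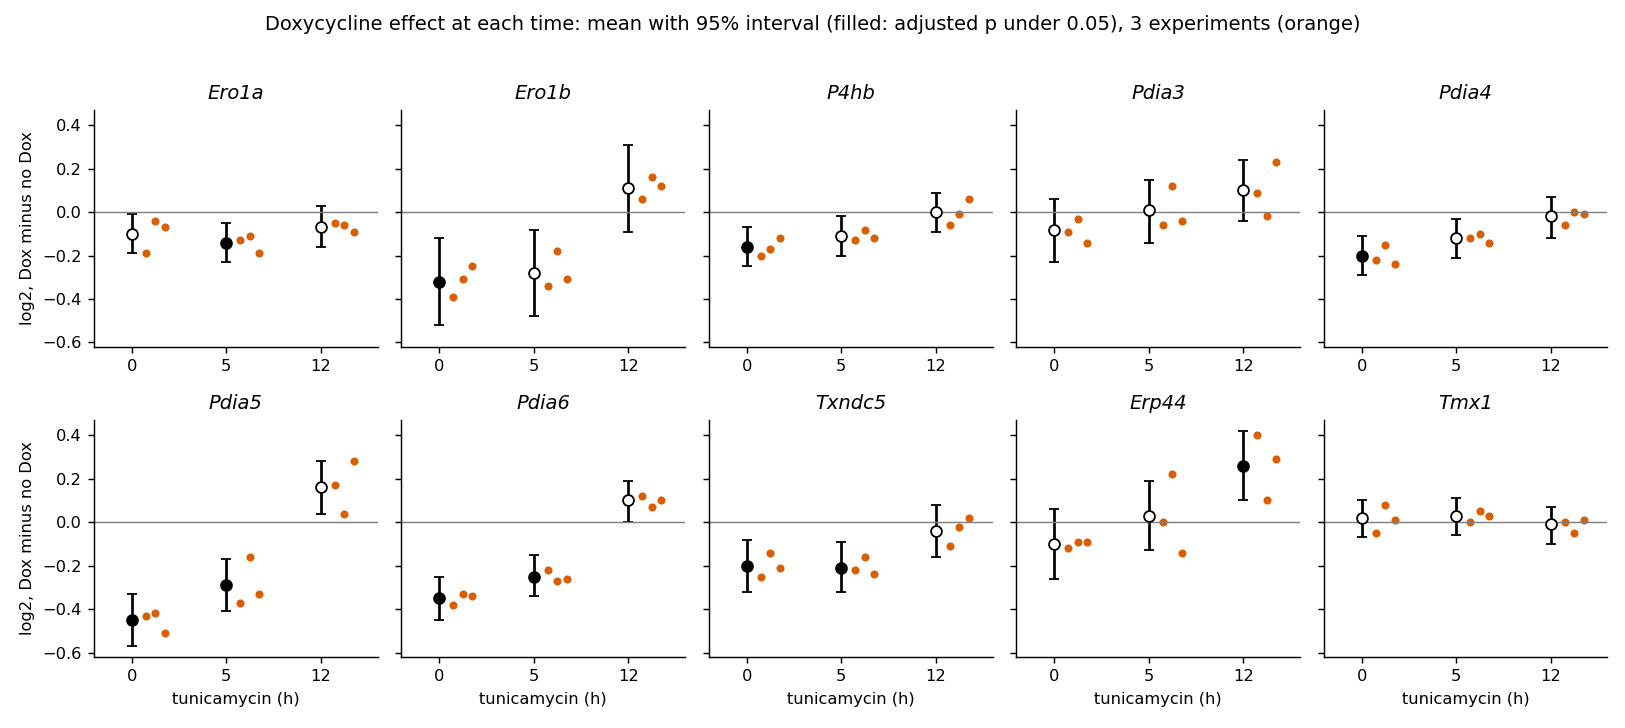
Difference between cultures with and without doxycycline at 0, 5 and 12 h of tunicamycin for the 10 genes on the log2 scale; black points are means with 95% intervals, filled where the limma adjusted p was under 0.05, and orange points are the 3 experiments. Pdia5 goes from -0.45 to -0.29 to 0.16 and Pdia6 from -0.35 to -0.25 to 0.10, while Tmx1 stays between -0.01 and 0.03.

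In cells with doxycycline the tunicamycin response was measured against doxycycline at 0 h. After 12 h 9 of the 10 genes rose and 0 fell, while 13.4% of all genes rose and 16.6% fell, with a median of 0.84. Ero1b rose by 3.42 ± 0.0943 (10.7-fold; adjusted p = 9.4e-15), Pdia5 by 1.66 ± 0.0571 (3.15-fold) and Pdia6 by 1.41 ± 0.0464 (2.65-fold). Pdia4, Erp44 and Ero1a rose by 0.88, 0.85 and 0.83, and Pdia3, P4hb and Txndc5 by 0.55, 0.52 and 0.43. In the second Pdia4 probe set the rise was 2.98. Tmx1 differed by -0.04 (95% interval -0.13 to 0.04).

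After 5 h with doxycycline 1 of the 10 genes rose, with 6.54% of all genes rising. Pdia5 rose by 0.22 ± 0.0571 (adjusted p = 0.0131), by 0.21, 0.22 and 0.24 in the 3 experiments. The call was lost without the first doxycycline and tunicamycin array (adjusted p = 0.0527), without doxycycline array 3 (0.0766), and without experiment 1 (0.095) or 3 (0.18). The other 9 genes differed by -0.01 to 0.09, Ero1b by 0.08. The second Pdia4 probe set rose by 0.89 ± 0.109 (adjusted p = 0.000136 over all probe sets), where the brighter one gave 0.00 (95% interval -0.09 to 0.09). From 5 h to 12 h with doxycycline 9 genes rose (10.9% of all genes did), from 0.42 for Txndc5 to 1.36 for Pdia6, 1.43 for Pdia5 and 3.34 for Ero1b. Over that span the second Pdia4 probe set rose by 2.09.

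**Figure D4:**
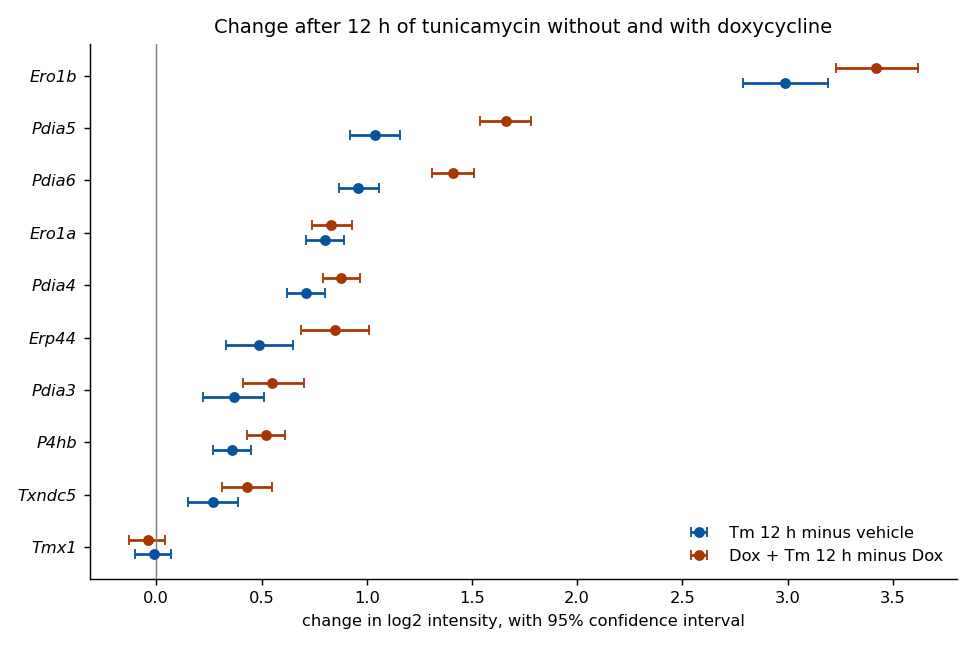
Change in log2 intensity after 12 h of tunicamycin without doxycycline (blue, against vehicle) and with it (red, against doxycycline at 0 h), with 95% intervals. Pdia5 moves from 1.04 to 1.66 and Pdia6 from 0.96 to 1.41, and both Tmx1 intervals span 0.

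Whether doxycycline altered the 12 h response was tested as the difference between those 2 responses, which uses the same arrays as the comparisons above. It passed in 2 of the 10 genes, Pdia5 and Pdia6, both with a larger response under doxycycline, and 0.993% of all genes passed in that direction. The median difference over the 10 was 0.18 and 6 genes had an unadjusted p under 0.05, as had 12.3% of all genes. In Pdia5 the response was larger by 0.61 ± 0.0807 (95% interval 0.44 to 0.78; adjusted p = 0.000283), at 0.60, 0.46 and 0.78 in the 3 experiments. In Pdia6 it was larger by 0.45 ± 0.0656 (0.31 to 0.58; adjusted p = 0.000899), at 0.50, 0.39 and 0.44. Most of each difference lay at 0 h, where doxycycline lowered Pdia5 by a log2 difference of -0.45 and Pdia6 by -0.35, and the rest at 12 h, where the differences were 0.16 and 0.10.

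Ero1b (0.43; adjusted p = 0.126), Erp44 (0.36; 0.113), Pdia4 (0.18; 0.191) and P4hb (0.16; 0.247) differed in the same direction in all 3 experiments without passing. With the experiment as a block Ero1b passed (adjusted p = 0.0362). Pdia3 and Txndc5 differed by 0.19 and 0.16 (adjusted p = 0.456 and 0.423), also in the same direction in all 3 experiments. The share of all genes with such agreement was not counted. In the second Pdia4 probe set the difference was 0.22 ± 0.154 (adjusted p = 0.742 over all probe sets). The interval of Ero1a ran from -0.10 to 0.16 around 0.03, and that of Tmx1 from -0.15 to 0.09 around -0.03, both below the values of Pdia5 and Pdia6. Without experiment 1 the Pdia6 call was lost (adjusted p = 0.152), and without experiment 3 both calls were (Pdia5 0.134, Pdia6 0.123). The count was 4 with a variance trend and robust fit and 4 with array weights.

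At 5 h limma found the same difference between responses in 0 of the 10 genes, 0 had an unadjusted p under 0.05, and of all genes 0.0301% and 8.28% did so. The values ran from -0.04 (Ero1a) to 0.16 (Pdia5, 95% interval -0.01 to 0.33). The second Pdia4 probe set gave 0.46 ± 0.154 (adjusted p = 0.678 over all probe sets), where the brighter set gave 0.08. A further comparison, added after these values had been seen, set the doxycycline effect at 12 h against that at 5 h. It passed in Pdia5 (0.45 ± 0.0807; adjusted p = 0.00914) and Pdia6 (0.34 ± 0.0656; adjusted p = 0.0156), 2 of 10 genes with 0.211% of all genes higher. Per experiment the values were 0.54, 0.21 and 0.60 for Pdia5 and 0.33, 0.33 and 0.36 for Pdia6. Both calls were lost without experiment 1 (adjusted p = 0.324 and 0.374) or 3 (0.555 and 0.448), and with only the compared groups in the fit (0.056 for each), and that of Pdia6 also without experiment 2 (0.1). For Pdia4 the brighter probe set gave 0.09 and the second set -0.24, and neither passed.

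Ordered by group mean, the 12 h groups were on top in 9 of the genes, with a gap below them that no array crossed. The share of all genes with such a gap was not counted. For Ero1b and Pdia5 the order from high to low was tunicamycin 12 h with doxycycline, tunicamycin 12 h, tunicamycin 5 h, vehicle, tunicamycin 5 h with doxycycline, and doxycycline. In Ero1b the 2 groups at 12 h overlapped, as did tunicamycin 5 h with vehicle and the 2 lowest groups. In Pdia5 only tunicamycin 5 h and vehicle overlapped among neighbours. In Ero1a, P4hb, Pdia4 and Txndc5 the 12 h group without doxycycline had the higher mean of the pair, and the differences (-0.07, 0.00, -0.02 and -0.04, doxycycline minus none) did not pass the test. All neighbours of Tmx1 overlapped.

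The rest of the ER's oxidative folding machinery was measured as 30 further genes. After 12 h of tunicamycin 8 of the 30 rose and 6 fell, with a median of 0.05, while 11.9% of all genes rose and 15.8% fell. The difference between this list and the 10 members was not tested. Pdia2, Pdilt, Agr2, Agr3 and Gpx7 lay at or under the silent level in every group. The largest rises were those of Creld2, a secreted and ER-resident isomerase-like protein, by 1.59 ± 0.0586 (adjusted p = 3.08e-13), and Selenos, a selenoprotein of ER-associated degradation, by 1.33 ± 0.0782. Selenok, another selenoprotein of the ER membrane, rose by 0.95 and the isomerase family member Txndc11 by 0.68. With doxycycline 9 rose and 6 fell (13.4% and 16.6% of all genes), Creld2 by 2.06, Selenos by 1.77 and Selenok by 1.17.

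After 5 h of tunicamycin, when 9.02% of all genes changed, 0 of these 30 rose and 4 fell: Txndc16 by 0.34, the peroxidase Prdx4 by 0.31 and Txndc12 by 0.19 were the largest of them. With doxycycline, 2 rose at 5 h, when 6.54% of all genes did (Selenos by 0.34, Creld2 by 0.33) and 2 fell, Txndc16 by 0.22 the larger. Doxycycline at 0 h lowered 2 (5.82% of all genes), with log2 differences of -0.38 for Creld2 and -0.28 for Txndc11, and raised 3 (4.89% of all genes), Creld1 by 0.24 the largest. At 5 h of tunicamycin it raised 4 (6.76% of all genes), among them Qsox2, a sulfhydryl oxidase, by 0.24 and Txndc12 by 0.23. At 12 h it raised 7 (6.95% of all genes), Selenos by 0.30, Creld1 by 0.27 and Qsox2 by 0.24, and lowered 0. The 12 h response was larger with doxycycline in 3 of the 30 (0.993% of all genes): Creld2 by 0.47 ± 0.0829 (adjusted p = 0.00479), Txndc11 by 0.44 ± 0.0943 (0.0184) and Selenos by 0.45 ± 0.111 (0.0446). Most of the difference lay at 0 h in Creld2 (means 11.01 with and 11.39 without doxycycline, then 13.07 and 12.99 at 12 h). The same held for Txndc11 (9.43 and 9.72, then 10.55 and 10.39). In Selenos (9.42 and 9.57, then 11.19 and 10.89) most of it lay at 12 h.

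Of 14 genes whose products bind the isomerases or are their clients, 13 were measured. After 12 h of tunicamycin 8 rose and 2 fell, with a median of 0.22. For this list too the shares of all genes are those given for each comparison above. P4ha2, the catalytic prolyl hydroxylase subunit that P4hb holds in solution, rose by 0.73 ± 0.0965, and the chaperone Hspa5 (BiP), a partner of Pdia6, by 0.69 ± 0.0499. Lman1, the cargo receptor that Erp44 binds, rose by 0.62 and Calr, the lectin that recruits Pdia3, by 0.41. With doxycycline 9 rose and 0 fell, Hspa5 by 0.90, P4ha2 by 0.78 and Lman1 by 0.75.

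By 5 h 0 of the 13 passed the limma test without doxycycline, and 2 rose with it, P4ha2 by 0.33 and Hspa5 by 0.16. Doxycycline at 0 h lowered Hspa5 and Calr, by log2 differences of -0.22 and -0.18, and raised Tapbp, the peptide-loading partner of Pdia3, by 0.31. At 5 h it raised Tapbp by 0.31 and P4ha1 by 0.28. At 12 h it raised 3, Tapbp by 0.48, P4ha1 by 0.37 and the glycoprotein sensor Uggt1 by 0.29. The 12 h response was larger with doxycycline in 1 of the 13, Calr, by 0.23 ± 0.0565 (adjusted p = 0.0446). Most of this lay at 0 h (means 12.62 with and 12.80 without doxycycline, then 13.25 and 13.20 at 12 h).

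**Figure D5:**
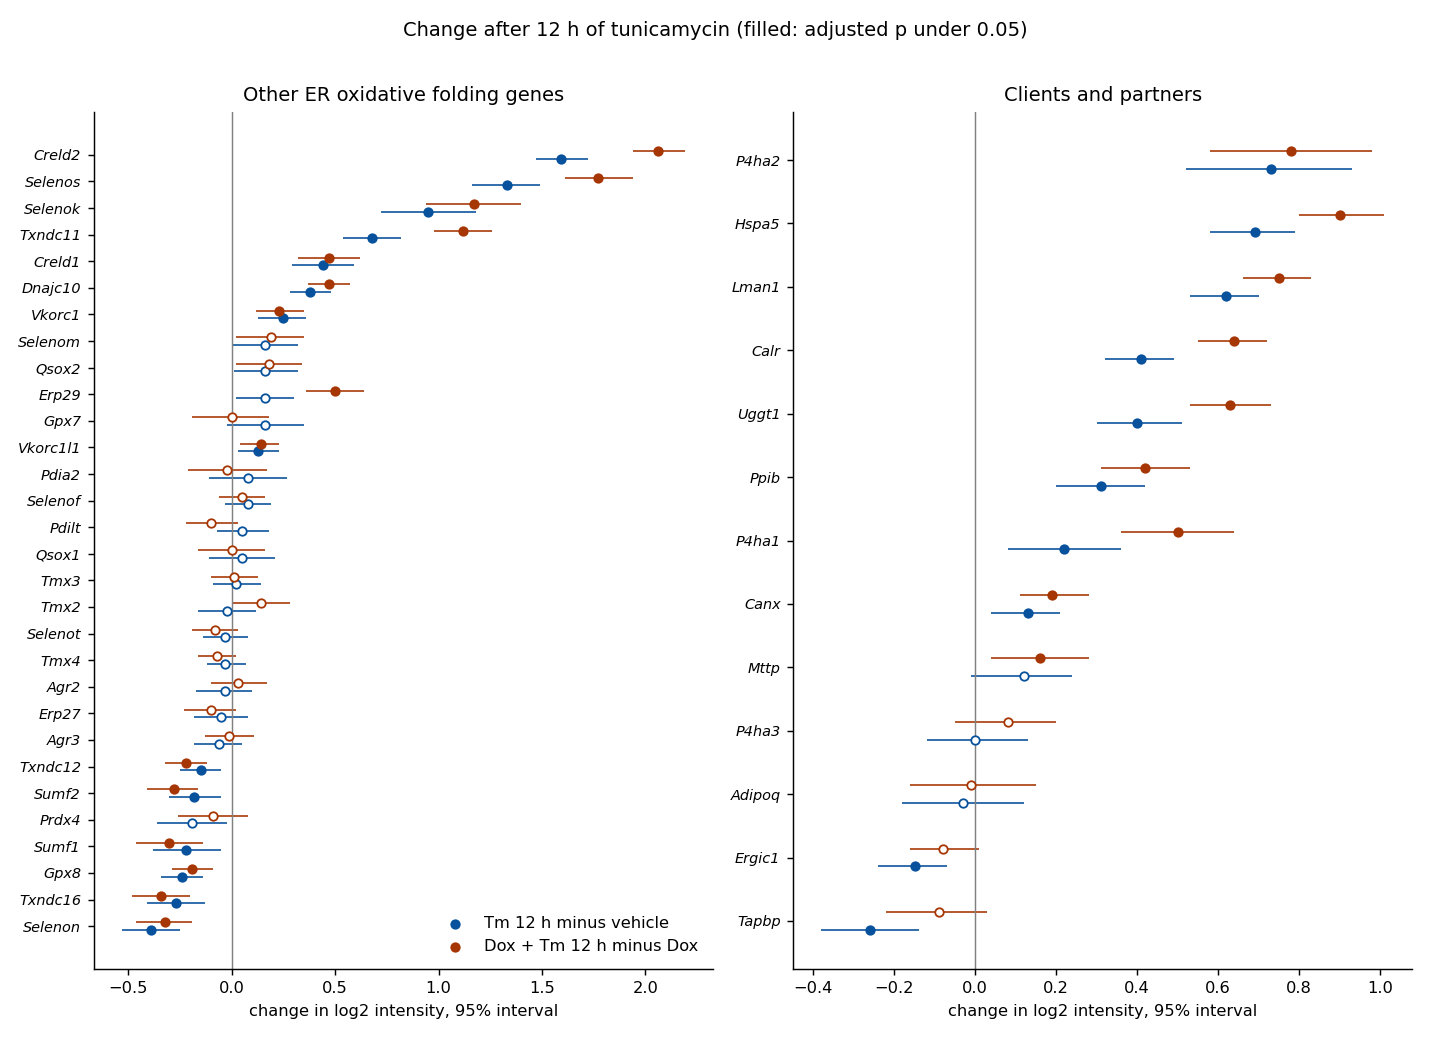
Change in log2 intensity after 12 h of tunicamycin without (blue) and with (red) doxycycline, with 95% intervals, for 30 other ER oxidative folding genes (left) and 13 clients and partners (right); filled points had a limma adjusted p under 0.05. Creld2 and Selenos lie farthest right on the left panel, and Hspa5 and P4ha2 at the top of the right one.

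The genes whose profile over the 18 arrays was most like that of a member were ranked by Pearson r among 12451 genes above the silent level. The arrays share the 6 groups, so r mostly reflects the group means and is given as a description. For Ero1b they were Edem1 (r = 0.996), Nucb2 (0.996), Syvn1 (0.994) and Ufsp2 (0.994). For Ero1a they were Cpox (0.991), Tmem39a (0.990), Dnajc3 (0.989) and Slc35b1 (0.989). For P4hb they were Ssr3 (0.991), Dpagt1 (0.990), Calr (0.990) and Dnajc3 (0.988). For the mean profile of the 10 genes they were Far1 (0.996), Hyou1 (0.996), Slc35b1 (0.995) and Dnajc3 (0.995). Dnajc3 stood on 3 of these lists, and Slc35b1 on 2.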

How the data were processed

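Total RNA of 18 cultures (3 independent experiments, 6 groups) was hybridised to 1-colour Affymetrix arrays. The values of the 35557 probe sets are log2 intensities as the authors deposited them. RMA and Partek are named in the submitters' processing notes without a version, and no build is given in the sources used here. RMA leaves background in dim probe sets and so can understate their fold changes. Array medians differed by at most 0.05 between groups, Pearson r within a group was 0.997 to 0.999, and 0 pairs of arrays were identical. The number of arrays limits the precision.

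Of the probe sets 21789 carried 1 symbol, 1621 several and 12147 none in the series' probe table. The brightest set with 1 symbol stood for a gene, which left 19938 genes. Group means were fitted with limma 3.58.1 in R 4.3.3 (lmFit, eBayes; all 18 arrays, 12 residual degrees of freedom), and p-values were adjusted by Benjamini-Hochberg over all genes, with calls at adjusted p under 0.05. Changes are differences of log2 values with their standard errors. The p-values rest on the spread of arrays within a group, pooled over the 6 groups. That spread is drawn by eBayes toward the spread of all genes. The fit was tested on simulated data.

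The members and gene lists were chosen with earlier results of these data known. The text names the 10 members, and from each further list up to 4 called genes with the largest change after 12 h of tunicamycin and up to 3 in other comparisons. The comparison of doxycycline effects at 12 h and 5 h was added after values had been seen. Same-numbered arrays come from the same experiment per the labels and series design, while their deviations correlated little (45 pairs, median r 0.04, 14 over 0.1; different numbers -0.01), so the experiment number was left out of the model and tried as an alternative. Other alternatives were dim-gene filters, other scalings, variance models, array weights, probe-set means, a 2-fold minimum and left-out arrays. Promoter motifs were matched by exact letters on both strands. Protein sequences were not used here.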

Additional observations from a re-analysis of the deposited data

Results flagged for a closer look

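A set of results stood out because the response to 12 h of tunicamycin differed between cultures with and without doxycycline in a test of that difference (limma, adjusted over all genes). Among the members these were Pdia5, with a response larger by 0.61 on the log2 scale, and Pdia6, larger by 0.45. Among the other ER oxidative folding genes they were Creld2 (0.47), Selenos (0.45) and Txndc11 (0.44), and among the clients and partners Calr (0.23). Most of the difference lay at 0 h, where doxycycline cultures were lower, in all of these but Selenos. In each of these 6 genes the difference was positive in 3 of 3 experiments. The genes were picked by the test on those same arrays, so this agreement adds no support. Without experiment 3 the calls of Pdia5 and Pdia6 were lost (limma adjusted p = 0.134 and 0.123). The doxycycline effect at 12 h also differed from that at 5 h in Pdia5 (0.45) and Pdia6 (0.34), a comparison added after values had been seen. The responses with and without doxycycline come from separate cultures, but both tests of Pdia5 and Pdia6 use the same 12 h arrays.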

How the results depend on the processing

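The counts below are members called of 10. Over the 12 comparisons and 32 alternatives, 3689 of 3840 member values kept their side of the threshold, 113 lost the call and 37 gained one. These 3689 include uncalled values near 0 whose sign changed, such as Tmx1 for doxycycline at 0 h (-0.02 to 0.05). A sign change that involved a call occurred in 1 value. With the mean of both probe sets Pdia4 rose by 0.45 after 5 h with doxycycline (adjusted p = 0.000121), where the brighter set gave 0.00. The cause was not tested. The 4 comparisons of 12 h of tunicamycin with an earlier time gave 9 under each alternative but the 2-fold minimum, which gave 2 against vehicle, 2 against 5 h, and 3 in each of the pair with doxycycline. That minimum gave 0 for each doxycycline effect (0, 5 and 12 h), for 5 h with doxycycline, for the 12 h difference between responses and for the 12 h against 5 h doxycycline effect.

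For doxycycline at 5 h of tunicamycin (4 called) the count was 2 with only the compared groups, 2 with array medians set equal and 7 with a variance trend and robust fit. For doxycycline at 12 h (1 called) it was 0 with only the compared groups, and 2 without genes at the silent level, without the dimmest 25% of genes, with repeated quantile normalization, with equal array medians, with a trend and robust fit and with array weights, where Pdia5 was added as higher. It was also 2 with the mean of probe sets, where Pdia4 was added as lower (-0.26, adjusted p = 0.00812). For 5 h against vehicle (0 called) it was 1 without genes at the silent level, without the dimmest 25% of genes, with repeated quantile normalization, with a trend and robust fit and with array weights, Ero1a each time. For doxycycline at 0 h (6 called) it was 3 with equal array medians. For 5 h with doxycycline (1 called) it was 2 with the mean of probe sets. For the 12 h difference between responses (2 called) it was 4 with a trend and robust fit and 4 with array weights, and for the added comparison (2 called) it was 0 with only the compared groups. The causes were not tested.

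Leaving out each array or experiment in turn (21 settings) gave 2 to 6 for doxycycline at 0 h, 0 to 4 at 5 h and 0 to 2 at 12 h, 0 to 1 for 5 h with doxycycline, 0 to 3 for the 12 h difference between responses and 0 to 2 for the added comparison. It gave 0 throughout for 5 h against vehicle and for the 5 h difference between responses, and 9 throughout for the 4 comparisons of 12 h with an earlier time. The replicate block, with the experiment as a term, added Ero1b for doxycycline against none at 5 h of tunicamycin (-0.28, adjusted p = 0.0144) and Ero1b in the 12 h difference between responses (0.43, adjusted p = 0.0362), for counts of 5 and 3, and changed no other member's call. Without the 2 arrays an earlier analysis doubted, the doxycycline effect at 5 h of tunicamycin lost its call in Ero1a (adjusted p = 0.0558) and gained one in Ero1b (0.0261). With repeated quantile normalization the members' median at 5 h against vehicle went from -0.02 to 0.01. Dim probe sets and 3 arrays a group limit what can be called.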
